A study of Mus musculus with 12 samples.

Results

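The pentose phosphate pathway enzymes are described here by 7 genes, G6pdx, Pgls, Pgd, Rpia, Rpe, Tkt and Taldo1. They were chosen by name for their place in the pathway, with earlier results of these data known. All 7 were among the 43278 genes of the count table, and all 7 passed the filter on low values in every comparison. Messenger RNA had been sequenced from 12 cultures of wild-type (WT) PMφs, elicited in the peritoneal cavity of mice by thioglycolate, and the study used the comparison of PMφs with and without oxidized LDL (oxLDL) to look for sources of reactive oxygen species. There were 3 libraries each of control PMφs (no LPS and no oxLDL), PMφs loaded for 24 h with human oxLDL at 100 µg/ml, PMφs given ultrapure LPS at 10 ng/ml, and PMφs given oxLDL and then LPS. The length of the LPS treatment of these libraries is not given in the sources used here. Per the study's methods the mice were male and female C57BL/6J litters of young adult age, and their cells were pooled before being divided among the 4 groups, so a library stands for a pool and not for a mouse.

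The pathway branches from glycolysis at glucose 6-phosphate. Its oxidative branch, run by glucose 6-phosphate dehydrogenase (G6pdx), 6-phosphogluconolactonase (Pgls) and 6-phosphogluconate dehydrogenase (Pgd), yields NADPH and ribulose 5-phosphate. Its non-oxidative branch interconverts sugar phosphates through an isomerase (Rpia), an epimerase (Rpe), transketolase (Tkt) and transaldolase (Taldo1), and so links ribose 5-phosphate for nucleotides with fructose 6-phosphate and glyceraldehyde 3-phosphate of glycolysis. In macrophages NADPH feeds the NADPH oxidase, nitric oxide synthase, lipid synthesis and the reduction of glutathione and thioredoxin.

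The libraries summed to 17152972 to 17709731 normalized counts (gene counts scaled by 1 factor per library) in control PMφs, 17440329 to 17444102 with oxLDL, 22590678 to 26384551 with LPS and 22071853 to 23346854 with both. The spacing of the values implies 16.7 M to 26.2 M reads on genes per library, and the least abundant member of a library, Rpia, still rested on 252 to 444 implied reads. The summed macrophage markers (6 of 7 found by symbol, among them Cd68, Csf1r and Lyz2, but not Adgre1) ran from 225490 to 295315 in all libraries, while those of B cells reached at most 86 and of T cells at most 14. Markers of mesothelial cells and fibroblasts summed to between 4487 and 27778 and were lowest in replicate number 3 of every group. Among the other cells of the cavity, neutrophil markers (1 of 6 at 0 in every library) summed to 39 to 61 without LPS and to 81 to 259 with it, and eosinophil markers (1 of 4 at 0 in every library) to 182 to 385 without and to 58 to 125 with it. Each of these sums was mostly 1 gene, S100a8 (31 to 49 without LPS and 74 to 248 with it) and Siglecf (180 to 383 and 55 to 124). Camp went the way of S100a8, at 0 in every library without LPS and at 1 to 10 with it. Ltf ran the other way from S100a8 (3 to 25 and 1 to 4). S100a9, Ly6g, Ngp, Epx and Prg2 were at 0 or 1 in every library, so the sums by themselves do not show a change in either cell type. Libraries also differed in transcripts that mark the sex of the pooled mice, and within number 1 they differed between LPS states. Xist was at 1 and 2 in control and oxLDL replicate 1 but at 6331 and 3812 in LPS and oxLDL+LPS replicate 1, whereas the Y-linked Ddx3y was at 0 to 2 in all libraries of replicate 2. Number 1 may therefore not be the same pool with and without LPS, and blocked values across LPS states are also given without it. The part of these differences in the results below was not tested. In bulk RNA, fewer cells of a type and less RNA per cell cannot be told apart.

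Levels were compared between genes per kilobase of exon, with exon lengths from the GENCODE annotation of GRCm38. The order between genes depends on these lengths, and which annotated transcripts the cells expressed was not tested. In control PMφs the highest level was that of Taldo1, at 3515 ± 794 normalized counts per kb (SD, n = 3), followed by Pgd at 1421 ± 330 and G6pdx at 1100 ± 126. Tkt stood at 821 ± 65.7, Pgls at 306 ± 4.91, Rpe at 204 ± 0.371 and Rpia at 50.1 ± 3.84 (SD, n = 3 each). The control libraries of Pgd (1040 to 1616 per kb) and G6pdx (958 to 1197) overlapped, and no other neighbours in this order did. With LPS the order of Pgls and Rpe was the other way round, at 201 ± 25.3 and 440 ± 38.6 normalized counts per kb (SD, n = 3 each), and it stayed so with oxLDL+LPS, at 224 ± 18.5 and 421 ± 21.3. Without division by length, the control mean of Pgd (9163) lay above that of Taldo1 (7630), and that of Tkt (6042) above G6pdx (3388). Pgls and Rpe also changed order without it, from means of 1155 and 635 in control to 759 and 1369 with LPS.

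**Figure D1:**
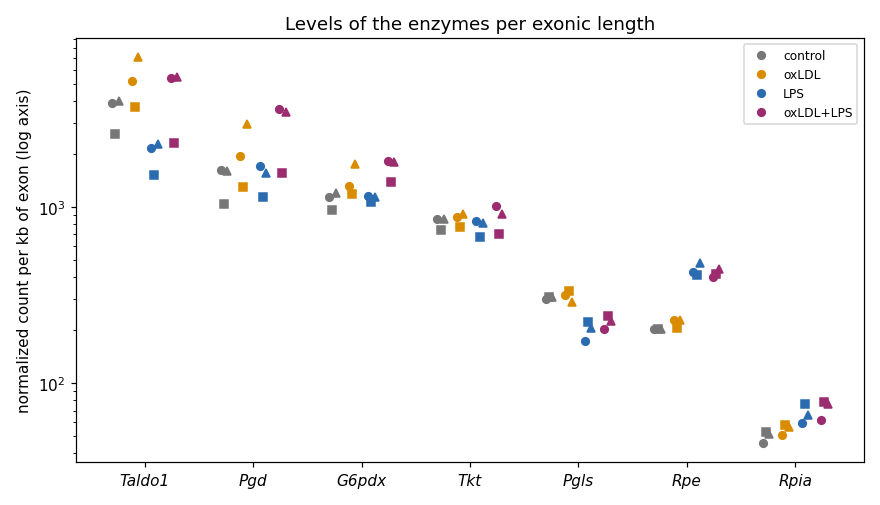
Normalized count per kb of exon (log axis) of each enzyme in the 12 libraries, ordered by the control mean; colour gives the group and the marker the replicate number (circle 1, square 2, triangle 3). Taldo1 and Rpia lie at the ends of the order, and Rpe lies below Pgls in control and oxLDL libraries and above it in LPS and oxLDL+LPS libraries.

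G6pdx, Pgd and Taldo1 had the largest log2 fold changes with oxLDL among the 7 genes, in both LPS states, so the bases before their start sites are shown. The sequences are those of RefSeq on GRCm38.p6, read 5′ to 3′ on the strand of the gene. The window of 250 bases before each RefSeq start was searched on both strands for TGACNNNGC, the core of the antioxidant response element, and for ACGTG, the core of the hypoxia response element. Of 32851 such windows in the mouse genome, 10.2% held the first and 16.6% the second. The window of G6pdx held a match to TGACNNNGC on the opposite strand, 57 to 49 bases before the start, and 30 bases around it are printed with the match in capitals. All 250 bases of that window lie in annotated exons of GENCODE and within the annotated span of G6pdx. Which gene or transcript these exons belong to was not examined. The windows of the other 6 genes, including a further start of Pgd, held neither motif. For Pgd the part of the window outside annotated exons is printed.
G6pdx, chrX:74428918-74428947, minus strand: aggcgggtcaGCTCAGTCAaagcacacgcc
Pgd, chr4:149166772-149166955, minus strand: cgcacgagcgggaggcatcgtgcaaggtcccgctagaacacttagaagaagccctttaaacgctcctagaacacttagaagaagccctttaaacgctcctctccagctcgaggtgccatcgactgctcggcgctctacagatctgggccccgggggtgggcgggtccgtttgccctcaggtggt
Taldo1, chr7:141391910-141392159, plus strand: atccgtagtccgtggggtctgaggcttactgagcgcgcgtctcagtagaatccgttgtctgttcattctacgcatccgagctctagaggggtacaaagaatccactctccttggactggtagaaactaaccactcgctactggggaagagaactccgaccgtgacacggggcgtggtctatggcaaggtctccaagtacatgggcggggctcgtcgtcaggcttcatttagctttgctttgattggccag

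To ask how oxLDL alone moved the pathway, oxLDL-treated PMφs were compared with control PMφs. Expression of G6pdx, Pgd and Taldo1 was higher with oxLDL in all 3 replicate numbers, by 1.28-, 1.41- and 1.49-fold on average, and passed the threshold only when libraries of the same number were compared with each other. The other 4 enzymes differed little, with log2 fold changes of 0.04 (Pgls), 0.06 (Tkt), 0.11 (Rpe) and 0.14 (Rpia). A gene was called at a Benjamini-Hochberg adjusted p under 0.1 from limma over all genes tested. Without a block for the replicate number 0 of the 12751 genes tested were called (0%; 381 had an unadjusted p under 0.05), and 0 of the 7 members. With the block 1.8% of the genes tested were called higher and 2.92% lower, against 3 members higher and 0 lower. Values did not overlap between the groups in 7.7% of the genes tested, and among the members only in Rpe, whose log2 fold change of 0.11 was not called (adjusted p = 0.368 from limma with the block).

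G6pdx, the enzyme of the committed step, is encoded on the minus strand of chromosome X (74409483 to 74429194, GRCm38). It stood at 3525, 2951 and 3688 normalized counts in control replicates 1, 2 and 3 and 4043, 3668 and 5426 in oxLDL replicates 1, 2 and 3. Replicate 2 was the lowest of each group, and oxLDL replicate 2 fell below control replicate 3. By replicate number the log2 differences were 0.20, 0.31 and 0.56, with a mean of 0.36 ± 0.15 (SE, limma) and an adjusted p of 1. Blocking for the number brought the SE to 0.061 and the adjusted p of limma to 0.0144, or to 0.132 without replicate 2.

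Pgd, which makes the pathway's other NADPH, is encoded on the minus strand of chromosome 4 (149149991 to 149166771). It stood at 10421, 6707 and 10360 normalized counts in control replicates 1 to 3 and at 12516, 8407 and 19089 in oxLDL replicates 1 to 3. The oxLDL value of replicate 3 was above every other, and the groups overlapped through replicate 2. Numbers 1 to 3 differed by 0.26, 0.33 and 0.88 on the log2 scale, on average by 0.49 ± 0.30 (SE, adjusted p = 1, limma). In the block the SE was 0.096 and the adjusted p of limma 0.0233, or 0.130 without replicate 2.

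Taldo1, the transaldolase of the non-oxidative branch, is encoded on the plus strand of chromosome 7 (141392199 to 141402968). It was at 8519, 5644 and 8728 normalized counts in control replicates 1 to 3 and 11329, 7983 and 15410 in oxLDL replicates 1 to 3. As with Pgd, replicate 2 was lowest in both groups and its oxLDL value lay under the control values of the other numbers. The mean log2 difference of 0.58 ± 0.26 (SE, adjusted p = 1, limma) came from 0.41, 0.50 and 0.82 in numbers 1 to 3. Blocked, its SE was 0.070 and the adjusted p of limma 0.00180, and without replicate 2 it was 0.0531.

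Of 16 alternatives the adjusted p from limma passed the threshold in 4 for G6pdx, 4 for Pgd and 5 for Taldo1, and these were blocked fits in every case. The adjusted p over the alternatives ran from 1.27e-08 to 1 for G6pdx, from 2.45e-15 to 1 for Pgd and from 5e-36 to 1 for Taldo1. The lowest values came from blocked fits of 2 pairs of libraries, which leave 1 residual degree of freedom per gene.

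**Figure D2:**
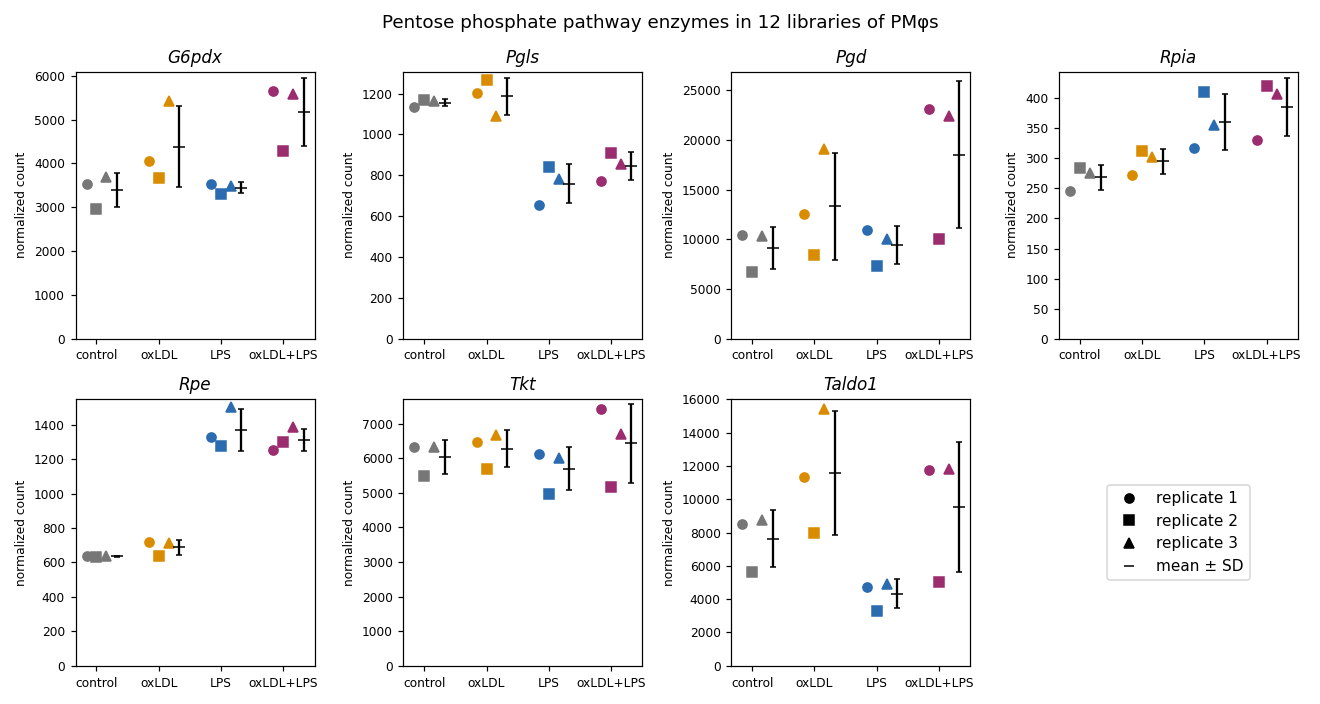
Normalized count (linear axis from 0) of the 7 enzymes in the 12 libraries, with the replicate number as marker and the mean ± SD (n = 3) of each group beside the points. Replicate 2 is the lowest library of every group for G6pdx, Pgd, Tkt and Taldo1, and Rpe lies at 634 to 716 without LPS and at 1254 to 1505 with it.

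In PMφs stimulated with LPS, oxLDL+LPS was compared with LPS. G6pdx, Pgd and Taldo1 were again the members with the largest differences, at 1.49-, 1.86- and 2.09-fold, and were higher in all 3 replicate numbers. Again 0 of the 12786 genes tested were called without the block (0%; 890 had an unadjusted p under 0.05). With it 4.42% were called higher and 8.74% lower, against 3 members higher and 0 lower. Groups did not overlap in 12.6% of the genes tested and in 2 of the 7 members, G6pdx and Taldo1.

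The normalized count of G6pdx was 3538, 3297 and 3492 in LPS replicates 1 to 3 and 5654, 4282 and 5574 in oxLDL+LPS replicates 1 to 3. Every oxLDL+LPS library lay above every LPS library. They differed by 0.58 ± 0.13 on the log2 scale (SE, adjusted p = 0.698, limma), with 0.68, 0.38 and 0.67 by number, and the blocked adjusted p was 0.00857.

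Pgd was at 10986, 7309 and 10050 in LPS replicates 1 to 3 and at 23147, 10005 and 22419 in oxLDL+LPS replicates 1 to 3. Replicates 1 and 3 stood far above the LPS group, while replicate 2 of oxLDL+LPS fell inside its range. Their log2 difference was 0.90 ± 0.34 (SE, adjusted p = 0.705, limma), with 1.08, 0.45 and 1.16 by number, and the blocked adjusted p was 0.00896.

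For Taldo1 the normalized counts were 4708, 3319 and 4928 in LPS replicates 1 to 3 and 11759, 5046 and 11834 in oxLDL+LPS replicates 1 to 3. The groups did not overlap, although replicate 2 of oxLDL+LPS was only just above the LPS libraries. On the log2 scale the difference was 1.06 ± 0.35 (SE, adjusted p = 0.698, limma), with 1.32, 0.60 and 1.26 by number, and the blocked adjusted p was 0.00525.

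These blocked calls depended on which pools entered the fit. A block without replicate 3 called 0 genes in all and gave an adjusted p of 0.365 from limma to each of the 3 genes. Without replicate 1 it gave 0.145 for G6pdx, 0.145 for Pgd and 0.0910 for Taldo1. Without oxLDL+LPS replicate 2 and with no block, their adjusted p values were 0.0719, 0.0866 and 0.0601. Over 16 alternatives the adjusted p ran from 7.36e-10 to 0.999 for G6pdx, from 3.74e-18 to 0.999 for Pgd and from 2.95e-31 to 0.999 for Taldo1, with the lowest again in blocked fits of 2 pairs. Pgls, Tkt, Rpia and Rpe differed by 0.16, 0.16, 0.10 and −0.06 on the log2 scale and were not called in either fit (blocked adjusted p = 0.239, 0.247, 0.555 and 0.664 from limma). In the block with equal library totals, an alternative chosen after seeing the data, Pgls at 0.25 (adjusted p = 0.0885 from limma) and Tkt at 0.26 (0.0784) were called.

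**Figure D3:**
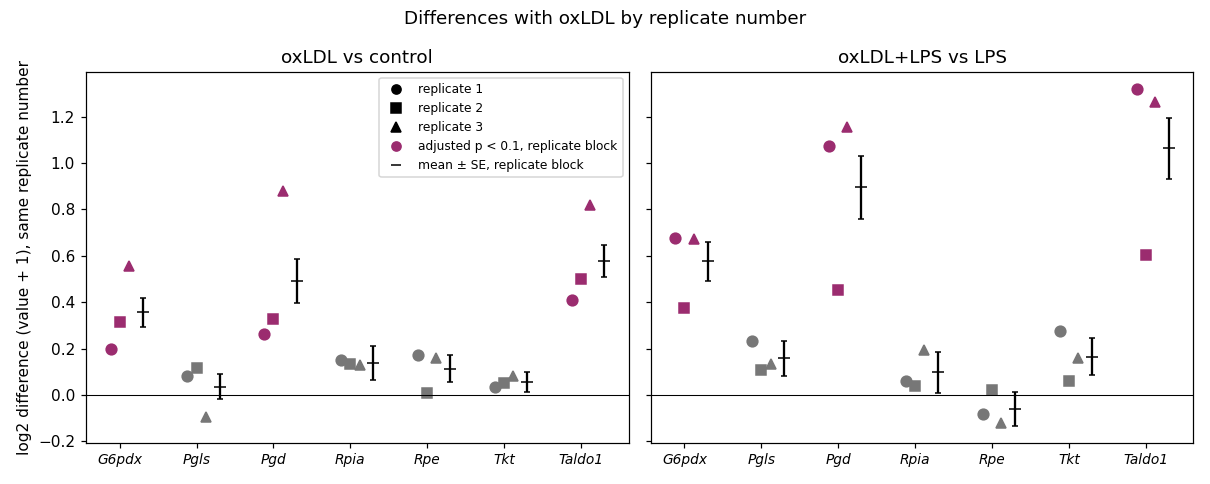
Log2 difference (value + 1) between libraries of the same replicate number, oxLDL minus control on the left and oxLDL+LPS minus LPS on the right, with the mean ± SE of the fit with a replicate block. G6pdx, Pgd and Taldo1 lie above 0 in all 3 numbers of both panels, and for these genes replicate 2 gives the smallest of the 3 differences in the LPS state.

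Whether the oxLDL difference itself was larger with LPS was tested as the interaction over all 12 libraries. The term was 0.22 for G6pdx, 0.40 for Pgd and 0.49 for Taldo1 on the log2 scale (blocked adjusted p = 0.413, 0.394 and 0.254 from limma, and 0.912, 0.888 and 0.810 in the block without number 1). No member was called in either. Of the 13482 genes tested 0% were called without the block (418 had an unadjusted p under 0.05) and 1.09% with it. By replicate number the term of Taldo1 was 0.91, 0.10 and 0.44, and in a block without replicate 2 it was called (adjusted p = 0.0330 from limma, in a range of 0.0330 to 1 over 21 alternatives).

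LPS alone moved the pathway's genes in both directions. Relative to control PMφs, expression of the epimerase gene Rpe was 2.15-fold and that of the isomerase gene Rpia 1.34-fold, while Pgls was at 0.654-fold and Taldo1 at 0.568-fold. These 4 members passed the test with and without the block, and in the block without number 1, 2 higher and 2 lower. Without the block 31.4% of the 13023 genes tested were called higher and 30.3% lower, with it 34.6% and 34.1%, and 63.2% of the genes did not overlap between the groups, so that 4 called members of 7 lie close to the background. The LPS libraries hold larger totals, and the direction of a small difference between LPS states depends on the scaling. Setting every library to the same total moved the median log2 fold change of all genes by −0.48 and the calls from 4093 higher and 3946 lower to 2170 and 7224. Quantile normalization moved the median by −0.14 and the calls to 3243 and 4816.

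Rpe, which turns ribulose 5-phosphate into xylulose 5-phosphate, is encoded on the plus strand of chromosome 1 (66700831 to 66719805). It was at 636, 634 and 636 normalized counts in control replicates 1 to 3 and at 1327, 1276 and 1505 in LPS replicates 1 to 3. Every LPS library was above every control library, and the control libraries hardly differed among themselves. Rpe rose by 1.10 ± 0.094 on the log2 scale (SE, adjusted p = 4.55e-05, limma), and the value stayed between 0.62 and 1.15 over the 16 alternatives, past the threshold in all of them.

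Rpia, which forms ribose 5-phosphate, is encoded on the minus strand of chromosome 6 (70765720 to 70792232). It stood at 245, 284 and 276 normalized counts in control replicates 1 to 3 and 317, 410 and 356 in LPS replicates 1 to 3. The groups did not overlap. It rose by 0.42 ± 0.13 on the log2 scale (SE, adjusted p = 0.0299, limma), but with equal library totals the value was −0.06 and not called, so its direction depends on the scaling. Without control replicate 1 the value was 0.36 and just missed the threshold (adjusted p = 0.102 from limma).

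Pgls, the lactonase between the dehydrogenases, is encoded on the plus strand of chromosome 8 (71592176 to 71601092). It was at 1134, 1167 and 1165 normalized counts in control replicates 1 to 3 and at 655, 842 and 780 in LPS replicates 1 to 3. No LPS library reached the control range. It fell by 0.61 on the log2 scale (SE 0.11, adjusted p = 0.00229, limma), and over the alternatives the value lay between −1.10 and −0.51, called in all 16.

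Taldo1 fell with LPS by 0.82 on the log2 scale (SE 0.21, adjusted p = 0.0130, limma), from 8519, 5644 and 8728 to 4708, 3319 and 4928 normalized counts in replicates 1 to 3. Its differences by number were −0.86, −0.77 and −0.82, and it was called in all 16 alternatives. Both the control and the LPS libraries had their lowest value in replicate 2. G6pdx (0.03) and Pgd (0.05) were not called with the authors' scaling, and they turned to −0.45 and −0.43 with equal totals and to −0.51 and −0.69 with quantile normalization, so no direction is given for them.

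Tkt, transketolase, is encoded on the plus strand of chromosome 14 (30548359 to 30574720) and varied least of the abundant enzymes over the 12 libraries, from 4976 to 7415 normalized counts. It was at 6330, 5484 and 6311 in control, 6480, 5678 and 6677 with oxLDL, 6122, 4976 and 6010 with LPS and 7415, 5183 and 6714 with both, in replicates 1 to 3 of each. All groups overlapped, and replicate 2 was the lowest of each. With the authors' scaling its log2 fold change was −0.09 with LPS against control and 0.02 with oxLDL+LPS against oxLDL, neither called, while equal totals gave −0.57 and −0.37 and quantile normalization −0.73 and −0.51, called in each case.

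**Figure D4:**
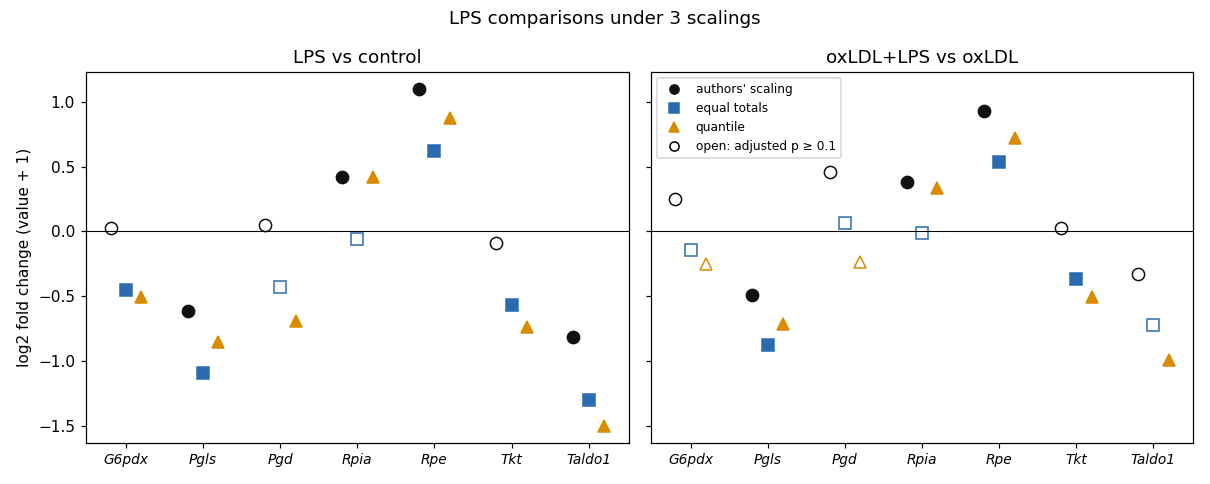
Log2 fold change (value + 1) of the 7 enzymes with LPS, without oxLDL on the left and with oxLDL on the right, under the authors' scaling, equal library totals and quantile normalization; open markers have an adjusted p of at least 0.1 from limma. Rpe stays above 0 and Pgls below 0 under all 3 scalings in both panels, whereas G6pdx changes sign in both, Pgd and Rpia change sign in both panels under 1 of the other scalings at least, and Tkt changes sign in the right panel.

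In oxLDL-loaded PMφs, LPS was followed by comparing oxLDL+LPS with oxLDL. This comparison shares no library with that of LPS and control. Per the study's methods, however, pooled cells were divided among all 4 groups. For number 1 Xist was at 1 and 2 in control and oxLDL and at 6331 and 3812 in LPS and oxLDL+LPS. Number 1 may therefore not be a single pool across LPS states. Rpe was called higher, with a log2 difference of 0.93 (SE 0.087, adjusted p = 1.36e-04, limma), and Pgls lower, with −0.49 (SE 0.099, adjusted p = 0.00548, limma). Rpe stood at 716, 638 and 711 normalized counts with oxLDL and at 1254, 1297 and 1384 with both agents, and Pgls at 1201, 1267 and 1091 against 770, 908 and 856. Neither gene's groups overlapped, and both were called in all 16 alternatives. Rpia, at 272, 312 and 302 against 331, 421 and 407, was called higher at 0.38 (SE 0.13, adjusted p = 0.0456, limma), which turned to −0.01 with equal totals. It lost the call without oxLDL replicate 1 (0.32), oxLDL+LPS replicate 2 (0.32) or oxLDL+LPS replicate 3 (0.34), and in the block without replicate 3 (0.36). Without the block 28.2% of the 12900 genes tested were called higher and 26.3% lower, with it 32% and 31.4%, and 57.6% did not overlap. Equal totals shifted the median of all genes by −0.39 and the calls from 3633 higher and 3397 lower to 2031 and 6660, and quantile normalization by −0.11 and to 2848 and 4283.

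The block added 3 members to the calls of that comparison, G6pdx at 0.25 (adjusted p = 0.0726 from limma), Pgd at 0.46 (0.0341) and Taldo1 at −0.33 (0.0842). In the block without number 1, which may not be 1 pool here, G6pdx was at 0.13 and not called (adjusted p = 0.243 from limma), while Pgd at 0.24 (0.0447) and Taldo1 at −0.52 (0.00242) were. Over 16 alternatives their adjusted p ran from 0.0715 to 0.617, from 0.0340 to 0.895 and from 0.00242 to 0.865. G6pdx turned to −0.14 with equal totals and to −0.25 with quantile normalization, and Pgd to −0.24 with quantile normalization. Taldo1 was at 0.08 without oxLDL+LPS replicate 2. In replicate 1 Taldo1 was slightly higher with both agents than with oxLDL (11759 against 11329 normalized counts), and in replicates 2 and 3 it was lower.

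Ratios between members of the same library do not depend on its scaling factor, and were computed per exonic length after the values had been seen. The ratio of Taldo1 to Pgd was 2.43, 2.5 and 2.5 in control replicates 1 to 3, 2.69, 2.82 and 2.4 with oxLDL, 1.27, 1.35 and 1.46 with LPS and 1.51, 1.5 and 1.57 with both. All libraries without LPS were above all libraries with it, and replicate 2, low for each gene alone, was the lowest of its group only with both agents. The ratio of Rpe to Pgls was 0.679, 0.658 and 0.661 in control, 0.722, 0.61 and 0.789 with oxLDL, 2.45, 1.84 and 2.34 with LPS and 1.97, 1.73 and 1.96 with both. Here the libraries with LPS were all higher. Relative to Tkt, G6pdx was at 1.33, 1.29 and 1.4 in control, 1.49, 1.54 and 1.94 with oxLDL, 1.38, 1.58 and 1.39 with LPS and 1.82, 1.97 and 1.98 with both. In either LPS state each oxLDL library was above its control library of the same number, and replicate 2 was the lowest of its group only in control. These ratios show unequal change of the members and not which of them changed.

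Across the 12 libraries, which share treatments and pools, the log2 values of G6pdx and Pgd had a Pearson correlation of 0.95, Tkt and Pgd of 0.848, and Tkt and Taldo1 of 0.825. Rpe and Rpia had 0.817, and Rpe and Pgls −0.917. Of 9440 genes with a mean of at least 100, the 5 with the profile most like the mean of the 7 members were Slc11a1 (r = 0.982), Srxn1 (0.982), Gclm (0.963), Chpf2 (0.96) and Akr1b3 (0.959). Srxn1 encodes sulfiredoxin and Gclm the modifier subunit of glutamate-cysteine ligase, and both also led for Pgd alone (0.992 and 0.99). For G6pdx the most similar genes were Slc11a1, Srxn1 and Gclc, for Taldo1 Tmem43, Cat and Creg1, and for Tkt Gstp1, Hprt and Slc30a1. Those of Rpe were Tdrd7, Cacybp and Dnaja1, those of Rpia Smg5, Wdr55 and Rusc2, and those of Pgls Gnpat, Tbc1d17 and Galk2.

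Among 14 genes of enzymes next to the pathway, 10 were tested with oxLDL, and H6pd was the only one called, in the block alone. The block called 1.8% of all genes tested higher with oxLDL and 2.92% lower. H6pd encodes the hexose 6-phosphate dehydrogenase of the endoplasmic reticulum. It was at 1645, 1411 and 1356 normalized counts in control and at 1843, 1515 and 1910 with oxLDL, a log2 difference of 0.25 (adjusted p = 1 without and 0.0824 with the block, from limma), and of 0.70 between oxLDL+LPS and LPS (0.705 and 0.00857). With LPS alone 2 of the 10 tested were called higher and 4 lower, beside 31.4% and 30.3% of all genes tested. Shpk encodes sedoheptulokinase, which supplies the pathway with sedoheptulose 7-phosphate. It stood at 84, 60 and 91 in control and at 20, 18 and 25 with LPS, with a difference of −1.84 on the log2 scale (adjusted p = 5.83e-04, limma), and at 69, 89 and 75 with oxLDL against 26, 32 and 30 with both. Every library with LPS was under every library without it. The gene listed as 9630033F20Rik, an older symbol of Tigar, whose product lowers fructose 2,6-bisphosphate, was higher with LPS by 0.72 (adjusted p = 0.00580 from limma). Prps1 and Prps2, which use ribose 5-phosphate to make phosphoribosyl pyrophosphate, had log2 fold changes of −0.23 and −0.13 with LPS and were not called.

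Of 12 tested genes of other NADPH sources, 0 were called higher and 1 lower with oxLDL in the block, beside 1.8% and 2.92% of all genes tested. Between oxLDL+LPS and LPS the block called 4 and 1, beside 4.42% and 8.74%. Idh1, the cytosolic isocitrate dehydrogenase, was at 4746, 4710 and 6040 normalized counts in control and at 865, 471 and 678 with LPS. Its log2 fold change with LPS was −2.98 (adjusted p = 2.02e-05 from limma). It was among the 6 of 12 tested genes of that list called lower with LPS, and 4 were called higher, beside 30.3% and 31.4% of all genes tested. Idh1 was 0.52 higher in oxLDL+LPS than in LPS PMφs with the block (adjusted p = 0.0216 from limma), and malic enzyme Me1 0.83 (0.0488). Without the block neither was called (0.792 and 0.755).

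Genes whose products use NADPH were called in both directions with oxLDL. Of 19 tested, the block called 7 higher and 5 lower without LPS, beside 1.8% and 2.92% of all genes tested. Of 20 tested, it called 9 and 5 with LPS, beside 4.42% and 8.74%, while 0 were called without the block. Among the lower ones without LPS were the lipid synthesis genes Fasn, Sqle and Dhcr7, and the higher ones were Gsr, Txnrd1, Blvrb, Por, Hmox1, Akr1b3 and Akr1b8. Gsr, glutathione reductase, differed by 0.49 and 0.45 in the respective states (blocked adjusted p = 0.0169 and 0.0268 from limma), and Txnrd1, thioredoxin reductase, by 0.71 and 0.89 (0.0116 and 0.0141). Nqo1 was low, at 21, 26 and 44 normalized counts in control and 49, 23 and 248 with oxLDL, and was called in the block only with LPS, at 2.01 (0.0117). With LPS against control 7 of 20 tested users of NADPH were called higher and 7 lower, beside 31.4% and 30.3% of all genes tested. Among the higher were Nos2, Cybb and Ncf1 of nitric oxide and superoxide production.

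A list of 11 genes held those of NRF2 (Nfe2l2), of its regulator Keap1 and of NRF2 targets outside the pathway. It shares Nqo1, Txnrd1, Hmox1 and Gsr with the users of NADPH and Me1 with the other NADPH sources. The block called 7 of the 11 higher and 0 lower with oxLDL, beside 1.8% and 2.92% of all genes tested. Between oxLDL+LPS and LPS it called 9 and 0, beside 4.42% and 8.74%. The list's median log2 fold changes were 0.62 and 0.89, beside −0.01 and −0.01 over all genes tested and 0.14 and 0.16 over the 7 members. Srxn1 stood at 4085, 1957 and 4196 normalized counts in control and 5282, 3097 and 12329 with oxLDL. Replicate 2 was lowest and oxLDL replicate 3 highest, as for Pgd. Srxn1 had the profile most like Pgd over these same libraries (r = 0.992), so this order adds nothing beyond that correlation. With LPS against control 6 genes of the list were called higher and 0 lower, beside 31.4% and 30.3% of all genes tested. The higher were Nfe2l2 (0.91), Keap1 (1.67), Slc7a11 (5.05), Txnrd1 (1.49), Gsr (1.31) and Hmox1 (0.71) on the log2 scale. Nqo1, Gclc, Gclm, Srxn1 and Me1 were not called without the block.

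In glycolysis, 0 of 16 tested genes were called higher and 1, Aldoc, lower with oxLDL in the block, and 2 higher and 3 lower between oxLDL+LPS and LPS, where hexokinase gene Hk2 differed by −0.60 (blocked adjusted p = 0.0129 from limma). LPS against control gave 8 higher and 6 lower, with Hk2 at 1.86 (adjusted p = 1.06e-04 from limma). Of 14 genes of nucleotide synthesis, the block called Atic alone with oxLDL, at 0.17 (0.0957) and 0.25 (0.0923) in the respective states. With LPS against control 2 were called higher and 6 lower, among the lower Paics (−0.56), Umps (−0.76) and Rrm1 (−0.68), and among the higher Adsl (0.70). The counts of these lists with LPS stand on the authors' scaling and move with it as the background does. Over all genes tested 31.4% were called higher and 30.3% lower with LPS against control without the block. With the block the shares were 1.8% and 2.92% for oxLDL against control and 4.42% and 8.74% for oxLDL+LPS against LPS.

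Some of the members share sequence with other annotated genes, and whether the counting used the strand is not given in the sources used here. In the GENCODE annotation 13.6% of the exonic length of G6pdx overlaps Ikbkg on the other strand (1040 to 3025 normalized counts), 20.6% of Pgls overlaps Fam129c on the same strand (23 to 49) and 17.9% of Rpe overlaps Kansl1l on the other strand (111 to 217). G6pd2, the retrogene copy of G6pdx, was at 0 to 4 in every library.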

How the data were processed

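Poly(A) RNA of 12 PMφ cultures had been sequenced in 4 groups of 3. Per the submitters' processing notes and methods, the authors used Trimmomatic 0.32 for trimming, STAR 2.5.1b for alignment to mm10 (GRCm38) and featureCounts for exonic reads of GENCODE genes. The deposited signal has the spacing of counts that were scaled with a single factor in each library and then rounded (here the normalized count), so tests for raw counts were not used. Factors were read from the spacing of the values, a step tested on simulated data. A spreadsheet had turned 25 symbols into dates, none of them a member.

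Groups were compared with limma 3.58.1 (R 4.3.3, eBayes with a trend) on log2 of the value plus 1, over genes at 10 or more in at least 3 of the libraries compared, with the 6 libraries of a comparison, or all 12 for the interaction. Fold changes are on that scale. The adjusted p is Benjamini-Hochberg over all genes tested, with a threshold of 0.1. The fits were tested on simulated data.

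The labels number the replicates 1 to 3, and per the study's methods cells were pooled and divided among the groups. Deviations from the group means over 11186 genes correlated between libraries of the same number by 0.691 to 0.731 (control and oxLDL), 0.664 to 0.733 (LPS and oxLDL+LPS), 0.41 to 0.617 (control and LPS) and 0.33 to 0.665 (oxLDL and oxLDL+LPS), so the numbers were taken to pair the libraries. Across LPS states number 1 differs in Xist and may not be the same pool, so blocked fits there were also made without it. Blocked values are printed where they change a call. Without the block, p-values measure the spread between the pools of a group. With it they measure the spread, between pools, of the difference within a number.

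Members and gene lists were chosen with earlier results of these data known. Named genes were the members, list genes that were called or hold a defining role, and the genes of most similar profile (5 for the mean, 3 per member); some list genes are not reported here. Exon lengths and positions are from GENCODE M21, promoters from RefSeq. The alternatives were no filter, a pseudocount of 5, all libraries in 1 fit, the block, equal totals, quantile normalization and each library or number left out. The block with equal totals was added after seeing the data.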

Additional observations from a re-analysis of the deposited data

How the results depend on the processing

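The limits are those of 3 pools per group. For oxLDL against control no fit without the replicate block called a gene, so the calls of G6pdx, Pgd and Taldo1 rest there on the pairing of libraries by replicate number. Between oxLDL+LPS and LPS the fit without oxLDL+LPS replicate 2 was the only one to call them with no block, and with LPS the direction of small differences rests on the authors' scaling. The alternatives of all members and comparisons were counted together. The log2 fold change came out the same in direction and call in 505 of them. It was past the threshold only there in 44, short of it in 5 and in the other direction in 41. The 505 include values that were called neither without the block nor in the alternative. The cause of the changes was not tested. Between LPS states no alternative moved the number of genes called in both directions together by more than 1.5 times, but equal totals moved each direction by more, from 4093 higher and 3946 lower to 2170 and 7224 for LPS against control and from 3633 and 3397 to 2031 and 6660 for oxLDL+LPS against oxLDL.

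With the replicate block the genes called numbered 601 (oxLDL against control), 1682 (oxLDL+LPS against LPS) and 147 (interaction), and with the block and equal totals, an alternative chosen after seeing the data, 707, 1618 and 205, against 0 in each of these fits without the block. The blocked pairing without 1 number called 139 to 1285, 0 to 2945 and 0 to 763 genes (without number 1, 214 and 71). Without 1 library and with no block the ranges were 0 to 0, 0 to 91 and 0 to 6, both highest values without oxLDL+LPS replicate 2, and all 12 libraries in 1 fit called 29 for oxLDL+LPS against LPS. Equal totals, with or without the block, turned the log2 value with LPS to −0.45 (G6pdx), −0.43 (Pgd) and −0.061 (Rpia), that of oxLDL+LPS against oxLDL to −0.14 (G6pdx), −0.0085 (Rpia) and −0.37 (Tkt), that of Rpe in oxLDL+LPS against LPS to 0.031 and the interaction of Rpia to 0.052. Quantile normalization turned G6pdx and Pgd with LPS to −0.51 and −0.69, and G6pdx, Pgd and Tkt in oxLDL+LPS against oxLDL to −0.25, −0.24 and −0.51.

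Leaving out 1 library gave log2 ranges that cross 0, none called, for oxLDL against control in Pgls (−0.013 to 0.095) and Tkt (−0.013 to 0.13), for oxLDL+LPS against LPS in Rpe (−0.11 to 0.010), for LPS against control in G6pdx (−0.068 to 0.093), Pgd (−0.16 to 0.23) and Tkt (−0.15 to 0.0089), for oxLDL+LPS against oxLDL in Taldo1 (−0.57 to 0.079) and Tkt (−0.086 to 0.17) and for the interaction in Rpia (−0.13 to 0.067) and Tkt (−6.254e-05 to 0.26). In blocked fits without a number, Pgls with oxLDL reached −0.0059 (number 2), G6pdx with LPS −0.037 (number 2) and Tkt in oxLDL+LPS against oxLDL −0.062 (number 1).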
